A study of Mus musculus with 9 samples.

Results

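Melanocytes from the back epidermis of mice with an epidermal Spry1 knockout were compared with melanocytes from the tail epidermis of mice of the same genotype. The comparison used the 6 knockout libraries of a series of 9, 3 from back and 3 from tail, chosen by their labelled tissue and genotype, over all 16299 genes of the deposited table. Both groups had the genotype Spry1flox/flox k14-Cre-ERT2: floxed Spry1 with a Cre recombinase that a drug of the tamoxifen class can activate, under the keratin 14 promoter. The other 3 libraries, from tail epidermis of Spry1flox/flox mice without Cre, entered the fit for its estimate of the spread and are given as a reference level. The keratin 14 promoter is active in basal keratinocytes, so the deletion was aimed at the neighbours of the sequenced cells and not at the melanocytes themselves. Age, drug treatment and the animals behind the replicates are not in the labels. The p-values here therefore reflect variation among the libraries at hand, which may be technical.

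Melanocytes are pigment cells of neural crest origin that make melanin in organelles called melanosomes and hand these to keratinocytes. In adult mice they remain in the epidermis between the hairs of the tail, while in back skin most of them lie in hair follicles. Spry1 encodes a feedback inhibitor of receptor tyrosine kinase signalling through the ERK pathway, the cascade on which melanocytes depend for growth factor signals.

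Recovered totals ranged from 47.4 to 56.7 M counts for back, from 45.3 to 64.8 M for knockout tail and from 65.7 to 67.2 M for control tail. Genes without a count numbered 4628 in the first and 6127 in the second back library, and 854 to 1739 in each of the remaining 7. These libraries stood apart on the first principal component at 34.1 and 61.6, with the other 7 between -22.0 and 5.4. The third back library, with 1471 such genes, is therefore set beside the group result against the third tail library. The third back and the third tail library form a set from which a shift against the other 7 had been removed before deposit, so their difference does not contain the shift. Normalised counts, as given here, still hold it: the third libraries can be set against each other, but their rank among the libraries of their group is not read. Calls, log2 differences and overlap are from the deposited values, in which it was removed. All 10 melanocyte markers were in the table, and the deposited log2 levels of Dct, Tyrp1 and Pmel in the 6 libraries lay between 19.84 and 20.95. The Y-linked Eif2s3y and Xist, the RNA of the inactive X chromosome, were both counted in all 3 back libraries. Of the tail libraries the first and second had Eif2s3y with 4 and 16 normalised counts of Xist, and the third had 7358 of Xist with 0 of Eif2s3y, so site and this difference cannot be told apart.

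In back melanocytes 23 genes rose and 48 fell, which is 0.141% and 0.294% of the 16299 tested, or 0.436% for both directions. The genes that rose included class I antigen presentation genes, interferon-inducible GTPases and immediate early transcription factors, and those that fell included the prolactin family gene Prl2c5, the sphingomyelinase gene Smpd1 and the cyclin gene Ccnd1. Calls are those at an adjusted p under 0.05 in limma on the deposited log2 values, with group and library set as terms and Benjamini-Hochberg adjustment over all genes. The SE given is the moderated one of this fit over all 9 libraries, with 1 spread per gene for all groups. The median SD over genes was 0.54 in back, 0.30 in knockout tail and 0.29 in control tail, so this SE can understate the spread in back. At an unadjusted p under 0.05 there were 2974. In each of the 71 called genes the 3 back libraries lay all above or all below the 3 tail libraries in the deposited values, as they did upwards in 7.53% and downwards in 15.6% of all genes. The third pair of libraries had the same sign in 71 of 71, with a size of at least 1 on the log2 scale in 22 of the 23 higher and 43 of the 48 lower genes. Over all genes that pair was at least 1 higher in back in 6.83% and at least 1 lower in 6.91%. The third pair is part of the group difference, so the 2 values are not independent.

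**Figure D1:**
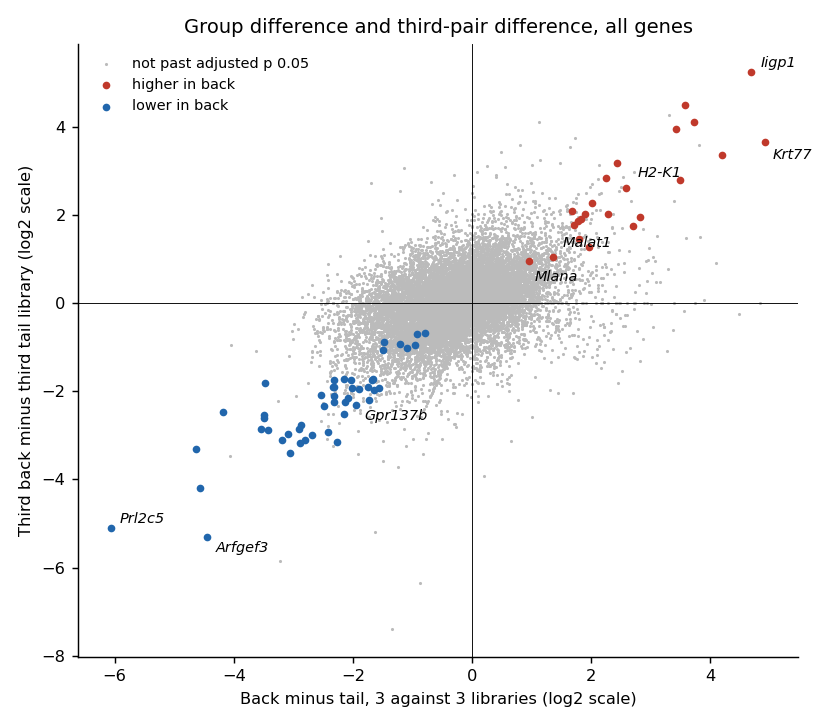
Each point is 1 of 16299 genes, with the difference of the group means (3 back minus 3 tail libraries, log2 scale) on the horizontal axis and the third back minus the third tail library on the vertical axis. The 23 genes called higher in back (red) lie in the upper right and the 48 called lower (blue) in the lower left, from H2-K1 at 2.58 and 2.62 to Prl2c5 at -6.06 and -5.10.

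Class I molecules display peptides from inside the cell to T cells, and 4 of their heavy chain genes rose. H2-K1, a classical class I heavy chain (chromosome 17, 33996017 to 34000347, minus strand, GRCm38), had normalised counts of 66048, 64063 and 82413 in back and 9937, 11334 and 12963 in tail. Every back library lay above every tail library, and the control tail libraries were lower still at 5882, 5705 and 5639. The ratio of the means was 6.21 and the log2 difference 2.58 ± 0.13 (moderated SE of the fit of 9 libraries, limma adjusted p = 0.001). H2-D1, the other classical heavy chain, had 311051, 262611 and 270726 in back against 71660, 88577 and 66386 in tail, a 3.73-fold ratio with a log2 difference of 1.90 ± 0.16 (SE) and a limma adjusted p of 0.008. The non-classical heavy chains were almost uncounted in tail. H2-Q7 had 10, 16 and 116 normalised counts there and 5061, 10080 and 4566 in back, and H2-Q6 had 0, 256 and 0 against 2598, 3898 and 3400. Their log2 differences were 4.19 ± 0.48 and 3.43 ± 0.45 (SE), with limma adjusted p of 0.026 and 0.033. Reads can be shared between these closely related genes, so the split among them is uncertain.

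The promoter windows of these 4 genes are shown because they hold one motif in common. Each window runs from 250 bases before to 50 after the annotated start, from RefSeq on GRCm38.p6, with the kappaB motif (GGG, any 2 bases, TTCCC, searched on both strands like the other motifs) in capitals. The windows are chr17:34000298-34000597 on the minus strand for H2-K1, which has 2 starts in the table, and, on the plus strand, chr17:35262844-35263143 for H2-D1, chr17:35424600-35424899 for H2-Q6 and chr17:35438905-35439204 for H2-Q7.
H2-K1: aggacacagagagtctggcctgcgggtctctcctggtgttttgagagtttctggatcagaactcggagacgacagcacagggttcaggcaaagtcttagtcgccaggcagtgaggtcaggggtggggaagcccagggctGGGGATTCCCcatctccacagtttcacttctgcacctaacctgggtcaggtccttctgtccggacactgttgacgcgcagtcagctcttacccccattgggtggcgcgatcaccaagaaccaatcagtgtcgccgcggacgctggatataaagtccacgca
H2-D1: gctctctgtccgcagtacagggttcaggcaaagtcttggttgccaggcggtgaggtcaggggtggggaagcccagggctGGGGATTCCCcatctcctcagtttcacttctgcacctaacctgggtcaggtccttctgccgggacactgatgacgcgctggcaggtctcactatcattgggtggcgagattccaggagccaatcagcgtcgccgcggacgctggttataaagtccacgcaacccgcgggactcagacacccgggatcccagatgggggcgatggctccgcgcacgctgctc
H2-Q6: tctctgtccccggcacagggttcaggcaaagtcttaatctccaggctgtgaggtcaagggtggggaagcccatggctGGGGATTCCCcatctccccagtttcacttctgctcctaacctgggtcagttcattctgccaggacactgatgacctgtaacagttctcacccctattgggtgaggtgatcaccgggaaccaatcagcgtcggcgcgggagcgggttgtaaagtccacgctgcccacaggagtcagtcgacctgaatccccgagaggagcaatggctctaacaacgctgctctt
H2-Q7: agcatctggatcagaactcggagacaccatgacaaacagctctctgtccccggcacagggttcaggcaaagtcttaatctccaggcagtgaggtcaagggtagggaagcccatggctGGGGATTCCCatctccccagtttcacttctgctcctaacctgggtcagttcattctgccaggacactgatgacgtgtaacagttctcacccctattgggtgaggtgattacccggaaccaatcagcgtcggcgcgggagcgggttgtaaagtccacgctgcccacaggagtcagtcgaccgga

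The motif lay 111 bases before the start in H2-K1, 171 in H2-D1, 173 in H2-Q6 and 133 in H2-Q7, with the same letters in all 4. Of the 23 genes that rose 19 had a window in the table, and these were the 4 with this motif. Of the 48 that fell 31 had a window, and 0 held it. In comparison, 1.75% of all 32851 windows held it, and 289 of the 10863 matched genes of the table (2.66%). The 4 windows are related in sequence, with identities in the best ungapped alignment from 46.4% (H2-K1 with H2-Q7) to 76.6% (H2-Q6 with H2-Q7) over the 6 pairs, so they are not independent cases. A match describes the letters of a window and does not show that a factor binds there.

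Of 21 measured class I presentation genes the 4 heavy chains rose and none fell. The median log2 difference over the list was 1.57, against -0.18 over all genes, and 1.23 in the third pair, against 0.00 over all genes. B2m, the light chain shared by class I molecules, had 516159, 464120 and 262976 normalised counts in back and 126595, 166646 and 82358 in tail, with no overlap, but did not pass (log2 difference 1.72, limma adjusted p = 0.057). The immunoproteasome subunit genes Psmb8 and Psmb9, whose products cut peptides for class I loading, differed by 2.15 and 1.99 without passing (limma adjusted p of 0.065 and 0.078). Nlrc5, the transactivator of class I genes, had 1255, 978 and 1110 against 0, 183 and 82, also without passing (adjusted p = 0.072). Not every member lay higher. Calr, a chaperone of class I assembly in the endoplasmic reticulum, had 16156, 30317 and 28550 in back against 38209, 39682 and 41434 in tail (log2 difference -0.71, adjusted p = 0.17). Tap1, a peptide transporter subunit, had 5 counts in the second back library, against 5346 and 8681 in the others.

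Class II molecules present peptides in professional antigen-presenting cells, and 0 of 7 measured class II genes passed in either direction, with a median difference of 1.14. The normalised counts of H2-Aa, a class II chain, were 2954, 3159 and 3693 in back and 0, 0 and 1281 in tail (log2 difference 2.96, limma adjusted p = 0.071). The summed share of 9 Langerhans and myeloid markers was 0.00364% to 0.0289% of counts in back and 0.00339% to 0.0164% in tail. The defining Langerhans marker Cd207 was absent from the table, as were Itgam and Aif1, and so were 6 of the 10 T cell markers, Cd3e and Trac among them. The part of such cells in the class I and class II values was not tested. In bulk libraries fewer cells of a type and less RNA per cell cannot be told apart.

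Interferon-inducible GTPases act against intracellular pathogens, and 3 of 12 measured members rose. Iigp1 had 17524, 16392 and 9111 normalised counts in back against 146, 825 and 0 in tail, with a log2 difference of 4.69 ± 0.45 (SE, limma adjusted p = 0.012). Tgtp1 had 10880, 8152 and 17128 against 495, 357 and 576, a 25.3-fold ratio (log2 difference 3.73 ± 0.46 SE, limma adjusted p = 0.029). Ifi47 had 9588, 2428 and 5191 against 220, 230 and 0 (log2 difference 3.57 ± 0.54 SE, limma adjusted p = 0.048). In each of these genes every back library was well above every tail library. With limma-voom on the recovered counts the adjusted p of these 3 genes were 0.092, 0.21 and 0.37, past no threshold. Tgtp2, a near copy of Tgtp1 with which it can share reads, did not pass (log2 difference 3.31, adjusted p = 0.072). All 12 members had a higher mean in back and in the third pair, with medians of 1.70 and 1.60.

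The Tgtp1 window (chr11:48992197-48992496, minus strand, GRCm38.p6, RefSeq) is shown because it holds both motifs of interferon-activated transcription that were searched, in capitals: GAS (TTCNNNGAA) 88 bases and ISRE (GAAA, any 2 bases, GAAA) 77 bases before the start, without overlap.
Tgtp1: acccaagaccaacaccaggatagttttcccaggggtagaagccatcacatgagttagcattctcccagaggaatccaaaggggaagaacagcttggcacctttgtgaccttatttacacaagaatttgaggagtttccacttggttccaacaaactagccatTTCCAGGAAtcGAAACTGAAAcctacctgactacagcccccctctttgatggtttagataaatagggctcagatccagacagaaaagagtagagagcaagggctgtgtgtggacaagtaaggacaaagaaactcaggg
The window of Ifitm3 held both motifs as well, after its start. ISRE was found in 3 of 19 matched higher genes and 2 of 31 matched lower genes. In comparison, 3.61% of matched genes of the table and 3.44% of all windows held it. GAS was found in 4 of 19 and 3 of 31, beside 8.21% of matched genes and 8.3% of all windows.

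Among 26 other interferon response genes 1 rose. Ifitm3, which blocks virus entry at membranes, had 74046, 57427 and 31766 normalised counts in back and 9851, 14274 and 7420 in tail. All back libraries were above all tail libraries, and control tail was lower at 1776, 1112 and 683. The ratio of the back and tail means was 5.17 and the log2 difference 2.28 ± 0.29 (SE, limma adjusted p = 0.033), which missed the threshold when the set term was dropped (adjusted p = 0.095). The list had a median difference of 0.77, and the members were not alike. Parp14 had 2551, 4730 and 1311 in back against 3, 0 and 215 in tail, and Oas1a had 8826, 11808 and 5220 against 1918, 2650 and 582, both short of the threshold (limma adjusted p of 0.06 and 0.053). Ifit3, an antiviral protein that binds other IFIT proteins, had 55051, 34285 and 27570 against 26611, 37655 and 54325, groups that overlapped, with a log2 difference of -0.02 ± 0.33 (SE, adjusted p = 0.98). Rsad2, Ifi44, Ifih1, Ddx58 and Cxcl10 were at 0 in the second back library alone among the 6, the chemokine gene Cxcl10 with 9924, 0 and 9359 in back and 1110 to 1976 in tail.

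Immediate early genes are transcribed quickly after growth factor or stress stimuli. The list used also holds genes of tissue dissociation stress, and 4 of its 24 measured members rose: Egr1, Fosb, Atf3 and Zfp36. Egr1, a zinc finger transcription factor induced by ERK signalling, had 50645, 53439 and 200406 normalised counts in back and 9023, 16132 and 21773 in tail. The groups did not overlap, and control tail had 14968 to 18467. The ratio of the means was 6.49 and the log2 difference 2.43 ± 0.28 (SE, limma adjusted p = 0.026). Fosb, a subunit of the transcription factor AP-1, had 14216, 10414 and 55551 against 1899, 4115 and 7276 (log2 difference 2.24 ± 0.32 SE, limma adjusted p = 0.043). Atf3, a stress-induced repressor, had 16721, 16448 and 102629 against 631, 857 and 14329. In the deposited levels, with the shift removed, every back library of Atf3 was above every tail library, and the log2 difference of 3.50 ± 0.53 (SE) passed at a limma adjusted p of 0.048. Zfp36, whose protein speeds the decay of inflammatory transcripts, had 26800, 19958 and 76505 against 8078, 8028 and 17668, with a log2 difference of 1.67 ± 0.21 (SE, limma adjusted p = 0.032).

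The Zfp36 window (chr7:28379179-28379478, minus strand, GRCm38.p6, RefSeq) is shown as the 1 window among the 19 matched higher genes with a CArG box, the motif of serum response factor at growth factor induced genes. It lies 58 bases before the start, in capitals, and 1.63% of all windows hold one.
Zfp36: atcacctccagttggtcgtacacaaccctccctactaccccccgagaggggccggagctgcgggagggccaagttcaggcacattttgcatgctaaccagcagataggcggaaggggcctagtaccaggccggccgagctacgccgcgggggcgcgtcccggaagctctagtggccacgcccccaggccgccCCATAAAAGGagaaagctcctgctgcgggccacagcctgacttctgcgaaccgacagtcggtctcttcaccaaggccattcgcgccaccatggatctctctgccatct
The AP-1 motif (TGANTCA) was found in 4 of 19 matched higher genes and in 4 of 31 matched lower genes. It was in 6.51% of matched genes of the table and 7.81% of all windows. The CRE motif (TGACGTCA) was found in 0 of either, beside 3.52% of matched genes of the table.

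All 24 genes of the immediate early and dissociation stress list had a higher mean in back, with a median difference of 1.39. In the third pair 24 of 24 were higher, with a median of 1.94. The groups did not overlap in 18 of the 24, beside 7.53% of all genes. Fos, the partner of Jun in AP-1, had 330163, 247719 and 1185134 normalised counts in back and 134217, 123965 and 273519 in tail (log2 difference 1.47 ± 0.28 SE, limma adjusted p = 0.074). Junb, another AP-1 subunit, had 53576, 42786 and 155521 against 21531, 21044 and 36172 (log2 difference 1.46, adjusted p = 0.053), and Btg2, an antiproliferative factor, had 11617, 3126 and 45079 against 648, 1060 and 5721 (log2 difference 2.53, adjusted p = 0.07). Nr4a2 and Gadd45b, a nuclear receptor and a stress sensor, had 0 counts in the second back library and overlapped between the groups.

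Heat shock chaperones, which refold damaged proteins, gave no call: 0 of 17 passed in either direction, 16 had a higher mean in back, and the median difference was 0.52. The stress-inducible Hspa1a had 15989, 41821 and 201616 normalised counts in back and 4106, 4720 and 34102 in tail (log2 difference 2.47, limma adjusted p = 0.07). Its near copy Hspa1b, with which it can share reads, had 3932, 4649 and 101954 against 1171, 1583 and 20210 (log2 difference 1.69, adjusted p = 0.09). The constitutive chaperone genes Hspa8 and Hspa5 overlapped between the groups, with differences of 0.27 and 0.09. How the cells were isolated is not stated in the labels, and the part of isolation in these values was not tested.

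**Figure D2:**
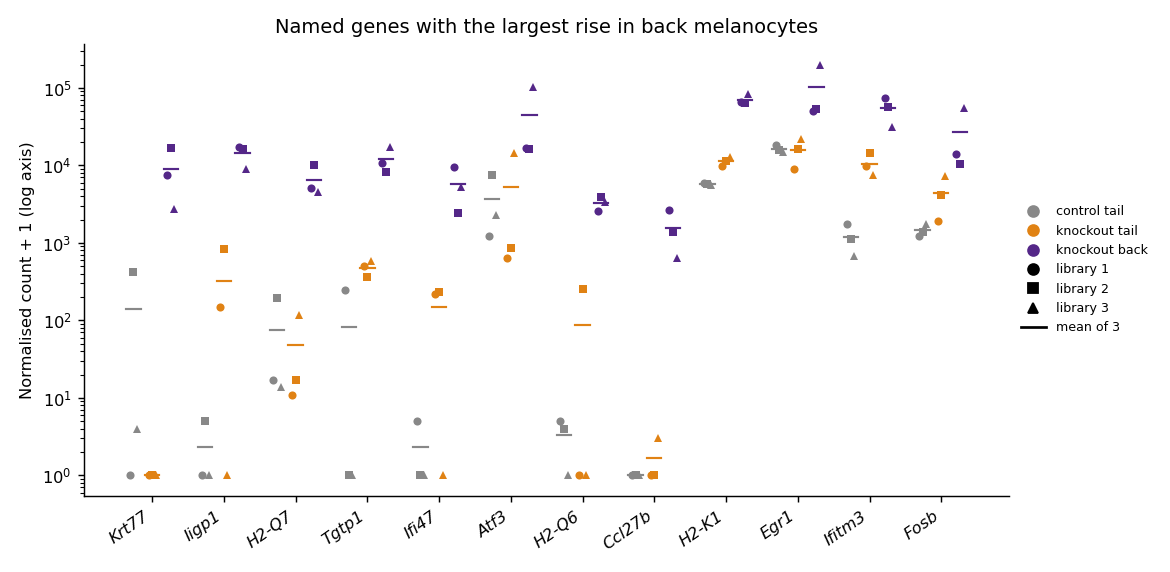
Normalised counts plus 1, on a log axis, of the 12 genes with the largest rise, unnamed gene models left out, by library (circle, square and triangle for libraries 1, 2 and 3) in control tail (grey), knockout tail (orange) and knockout back (purple), with a line at the mean of 3. In each gene all 3 back libraries lie above all 3 tail libraries, from Krt77 with 0 counts in each tail library to H2-K1 with 9937 to 12963 in tail and 64063 to 82413 in back.

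The largest log2 difference upwards was in Krt77, a type II keratin. It had 7547, 16675 and 2709 normalised counts in back and 0 in all 3 tail libraries, so the back mean was at least 3197-fold higher against a floor of 3 counts per tail library. The log2 difference was 4.92 ± 0.64 (SE, limma adjusted p = 0.033). The chemokine gene Ccl27b had 2644, 1369 and 637 in back and 0, 0 and 2 in tail (log2 difference 2.82 ± 0.35 SE, adjusted p = 0.029), and the unnamed model Gm13306 2462, 1284 and 629 against 0, 0 and 14. These 2 models on chromosome 4 had counts in nearly the same ratio in each back library, and reads may be shared between them. Markers of differentiated keratinocytes, which also make keratins, summed to 0.0683%, 0.392% and 0.112% of counts in back and 0.0268%, 0.0325% and 0.405% in tail (exact two-sided permutation p = 0.6, where 0.1 is the smallest possible). Of the back libraries the second had the highest share and the most Krt77. Of the control tail libraries the second did as well, with a share of 0.282% and 415 counts of Krt77, against 0.114% and 0.0561% with 0 and 3. Of the knockout tail libraries the third had the highest share, with 0 counts of Krt77. In the mean deposited level of these markers, with the shift removed, the third was also the highest, at 12.33 against 10.43 and 10.58. The part of keratinocyte RNA in the value of Krt77 was not tested.

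Mlana and Bcl2, tied to melanocyte identity and survival, were also among the genes that rose. Mlana was the 1 call among 28 genes of melanin synthesis and the melanosome, whose median difference was -0.56. Of these 28 the back libraries lay all above tail in 4 and all below in 10, beside 7.53% and 15.6% of all genes. Pmel, Tyrp1 and Tyr were among the 10. Mlana, a melanosome protein, had 633897, 597628 and 353409 normalised counts in back against 319579, 316496 and 181280 in tail, a 1.94-fold ratio. Within each set of libraries the back values were higher, and the lowest back count was above the highest tail count. The log2 difference was 0.95 ± 0.10 (SE, limma adjusted p = 0.02), and with quantile normalisation it was 0.35 and did not pass. Bcl2, an inhibitor of apoptosis on which melanocyte survival depends, had 9702, 7974 and 9611 against 2353, 2137 and 2193, a 4.08-fold ratio (log2 difference 1.82 ± 0.28 SE, adjusted p = 0.048). It was the 1 call among 16 measured survival and death genes, whose median difference was 0.07. The related Bcl2l1 and Mcl1 differed by -0.22 and -0.08, with overlap.

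Malat1, a long noncoding RNA held in the nucleus, had 921546, 988450 and 448026 normalised counts in back against 263729, 328733 and 131447 in tail and 366549 to 460305 in control tail. The groups did not overlap, and the ratio of the means was 3.26 (log2 difference 1.72 ± 0.12 SE, limma adjusted p = 0.0038). Neat1, another nuclear RNA, overlapped between the groups (28628, 21441 and 14159 against 9897, 6569 and 20196), and its difference of 0.87 did not pass (adjusted p = 0.36). Rnase1, a secreted ribonuclease, had 17747, 22648 and 16990 against 3908, 6491 and 3117 (log2 difference 2.02 ± 0.24 SE, adjusted p = 0.026). Josd2, a deubiquitinase gene, had 10851, 13098 and 12036 against 3866, 3848 and 5523 (log2 difference 1.36 ± 0.20 SE, limma adjusted p = 0.046). Gabbr1, a subunit of the GABA B receptor, had 397, 426 and 922 against 0, 0 and 43 (log2 difference 1.78 ± 0.27 SE, limma adjusted p = 0.047).

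Positional transcription factors keep a record of body region, and 17 of 48 listed genes were measured. Of these Hoxb2 rose, with 827, 766 and 339 normalised counts in back and 0, 0 and 13 in tail (log2 difference 1.96 ± 0.29 SE, limma adjusted p = 0.043). Meis2, a cofactor of Hox proteins, fell, with 0, 0 and 15 in back and 1301, 2373 and 2018 in tail (log2 difference -3.09 ± 0.37 SE, adjusted p = 0.026). Control tail had 76 to 103 of Hoxb2, nearer to knockout tail, and 1120 to 1753 of Meis2, overlapping knockout tail. The posterior genes Hoxb13, Hoxd9 and Hoxd11 were at 0 in all 3 back libraries, with at most 272, 368 and 208 counts in any tail library, and did not pass. Hoxb7 had 0, 4498 and 889 in back against 82 to 171 in tail, and Hoxa9 0, 2493 and 9 against 0 to 667, so the back libraries did not share one pattern. The median of the list was 0.15 in the group comparison and -0.34 in the third pair.

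Of 28 genes of melanin synthesis and the melanosome Mlana alone passed, and the median difference was -0.56, or -0.14 in the third pair. The deposited levels of Pmel, which forms the melanosome fibrils, were 20.05, 20.09 and 19.84 in back and 20.95, 20.94 and 20.91 in tail (log2 difference -0.94 ± 0.23 SE, limma adjusted p = 0.11). Tyrp1, an enzyme of eumelanin synthesis, was at 20.01, 20.10 and 19.91 against 20.84, 20.76 and 20.36 (log2 difference -0.65 ± 0.11 SE, adjusted p = 0.057), and Tyr, which catalyses the first step, differed by -0.56 (adjusted p = 0.14). In these 3 genes the groups did not overlap, yet none passed. Dct, which acts between Tyr and Tyrp1, differed by 0.06 with overlap (adjusted p = 0.79). Oca2, an anion channel of the melanosome, had 32627, 10333 and 50615 in back against 85274, 72726 and 112726 in tail without passing (log2 difference -1.76, adjusted p = 0.091), and Rab27a, which links melanosomes to the cell cortex, 9235, 19520 and 8187 against 2732, 2535 and 4627 (log2 difference 1.70, adjusted p = 0.11).

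None of the 17 melanocyte lineage regulators passed, and the median difference was 0.24. Mitf, the central transcription factor of the lineage, had 17331, 17629 and 14654 normalised counts in back and 12567, 8282 and 9879 in tail (log2 difference 0.68 ± 0.21 SE, limma adjusted p = 0.15; exact two-sided permutation p = 0.1, the smallest possible). Sox10, which maintains the lineage, overlapped at 22344 to 28704 against 24478 to 28237, with a difference of -0.06 ± 0.15 (SE). Kit, the receptor for stem cell factor, overlapped as well and differed by 0.25 (adjusted p = 0.65). Pax3, a regulator of melanoblasts, had 19154, 27222 and 36941 against 18820, 15585 and 15860 and did not pass (log2 difference 0.67, adjusted p = 0.18).

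The targeted gene does not serve as a check here, since Cre was driven in keratinocytes. Spry1 had 2283, 0 and 746 normalised counts in back and 3590, 1758 and 587 in tail, groups that overlapped (exact two-sided permutation p = 0.5). Of 21 ERK targets and feedback genes Egr1 rose and Ccnd1 fell, and the median difference of -0.18 equalled that of all genes. It was 0.13 with quantile normalisation. Dusp6 and Spry2, feedback inhibitors of the pathway, differed by 0.18 and 0.09 with overlap. Etv5, an ERK-induced transcription factor, had 140, 1064 and 3808 against 4116 to 4832 and did not pass (log2 difference -1.75, adjusted p = 0.18).

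Ccnd1, the D-type cyclin that drives entry into the cell cycle, had 3533, 1938 and 5573 normalised counts in back and 9457, 8938 and 19625 in tail. The groups did not overlap, control tail had 15754 to 19851, and the tail mean was 3.44 times the back mean (log2 difference -1.67 ± 0.23 SE, limma adjusted p = 0.038). It was the 1 call among 13 G1 genes. Ccnd2 and Ccnd3, its paralogues, overlapped between the groups with differences of -1.05 and 0.34.

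The genes that fell most were at or near 0 counts in back. Prl2c5, a prolactin family hormone gene, had 11, 20 and 98 normalised counts in back against 23624, 36743 and 15429 in tail and 130454 to 182634 in control tail. The 3 groups did not overlap, and the tail mean was 589 times the back mean. The log2 difference was -6.06 ± 0.34 (SE, limma adjusted p = 0.0013), while limma-voom on the recovered counts gave an adjusted p of 0.26. Its near copy Prl2c2 had 0 in all back libraries and 4533, 1647 and 1371 in tail, at least 780-fold lower in back against a floor of 3 counts per library, and the split of reads between the 2 copies is uncertain. Arfgef3, a regulator of hormone secretion granules, had 4, 0 and 0 in back against 3811, 4014 and 9417 in tail (log2 difference -4.45 ± 0.42 SE, adjusted p = 0.012).

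The unnamed model Gm14226 had 0, 0 and 122 in back against 5898, 6669 and 8657 in tail (log2 difference -4.56, adjusted p = 0.0038). With such models left out, the other 9 of the 12 largest falls shared that shape in part. Slc2a6, a sugar transporter of the lysosome, had 0, 5 and 0 against 1686 to 2373, and Tnfrsf1b, a receptor for tumour necrosis factor, 17, 57 and 0 against 1572 to 3055. In Napsa, an aspartic protease gene, Bfsp2, an intermediate filament gene of the eye lens, and Chaf1b, a histone chaperone subunit, the first and second back libraries were at 0 and the third had 181, 596 and 1372, against tail values no lower than 4134. Mme, a membrane peptidase gene, had 4, 111 and 770 against 4651 to 6550, and Lhfp 5, 9 and 260 against 3568 to 4401. Krt6b, a keratin of hair follicles and wounded skin, had 101, 0 and 15155 in back and 4429, 4888 and 112232 in tail, and back was lower than tail in both library sets. Adjusted p of these 8 genes in limma ran from 0.026 to 0.043, and Meis2 is given with the positional factors.

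Zeros in the first and second back libraries were not special to the genes that fell. Of 10077 genes with at least 100 normalised counts in every tail library and in the third back library, 13.4% were at 0 in the first back library, 22.8% in the second and 768 in both. These 768 had a median group difference of -1.37, and in the third pair of -0.01. Of the 48 genes that fell 14 were at 0 in all back libraries, 9 in the first and second alone, 9 in another way, and 16 were counted in all 3. Among genes of S phase and mitosis 0 of 27 passed in either direction. Their median difference was -1.02, and in the third pair it was 0.14. Of these 27, 2 were at 0 in the first back library and 13 in the second. The 11 counted in all 6 knockout libraries had a median difference of -0.63, against -0.01 over all genes so counted. Mcm2, a subunit of the replicative helicase, had 4, 0 and 3717 in back and 3918, 4406 and 4750 in tail. All 23 genes that rose were counted in all back libraries, while 9 of them were at 0 in at least 1 tail library.

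Of the genes that fell 11 had at least 1000 normalised counts in every back library. Gpr137b, a lysosomal membrane protein, had 15495, 15874 and 16585 in back and 52789, 57443 and 84134 in tail, with 42786 to 50081 in control tail. The back libraries lay close together and well below the other groups, the ratio of tail to back was 4.05, and the log2 difference was -1.96 ± 0.15 (SE, limma adjusted p = 0.0051). Smpd1, the acid sphingomyelinase of the lysosome, had 10109, 13069 and 11205 against 34626, 39875 and 38616 (log2 difference -1.68 ± 0.16 SE, adjusted p = 0.012). Sptlc2, a subunit of the enzyme that starts sphingolipid synthesis, had 16891, 16343 and 22491 against 34360, 31917 and 44022 (log2 difference -0.97 ± 0.15 SE, adjusted p = 0.048). Slc24a4, a potassium-dependent sodium and calcium exchanger associated with pigmentation, had 7900, 3695 and 6207 against 26411, 21682 and 29366 (log2 difference -2.08 ± 0.28 SE, adjusted p = 0.033).

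Some other genes that fell also had counts in every back library, and those given here were chosen after their values were seen. Cdh13, a cadherin without a cytoplasmic tail, had 2162, 3505 and 887 in back, 11935, 10032 and 11476 in tail and 21662 to 27162 in control tail (log2 difference -2.26 ± 0.32 SE, limma adjusted p = 0.043). Ecm1, a secreted matrix protein, had 17378, 24171 and 11654 against 56317, 62446 and 55044 (log2 difference -1.74 ± 0.24 SE, adjusted p = 0.04). Rhog, a small GTPase, and Arhgdia, an inhibitor of nucleotide release from such GTPases, had tail means 4.83 and 1.92 times the back means (adjusted p of 0.033 and 0.043). Mamdc2 had 4454, 2947 and 3585 in back, 10044, 10374 and 14903 in tail and 2421 to 3108 in control tail, so the back libraries were nearer to control tail. Itgb3, an integrin subunit, was the 1 call among 25 adhesion and matrix genes, with 0 counts in all back libraries and 952, 1037 and 1530 in tail, at least 364-fold lower against the floor of 3 counts per library.

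**Figure D3:**
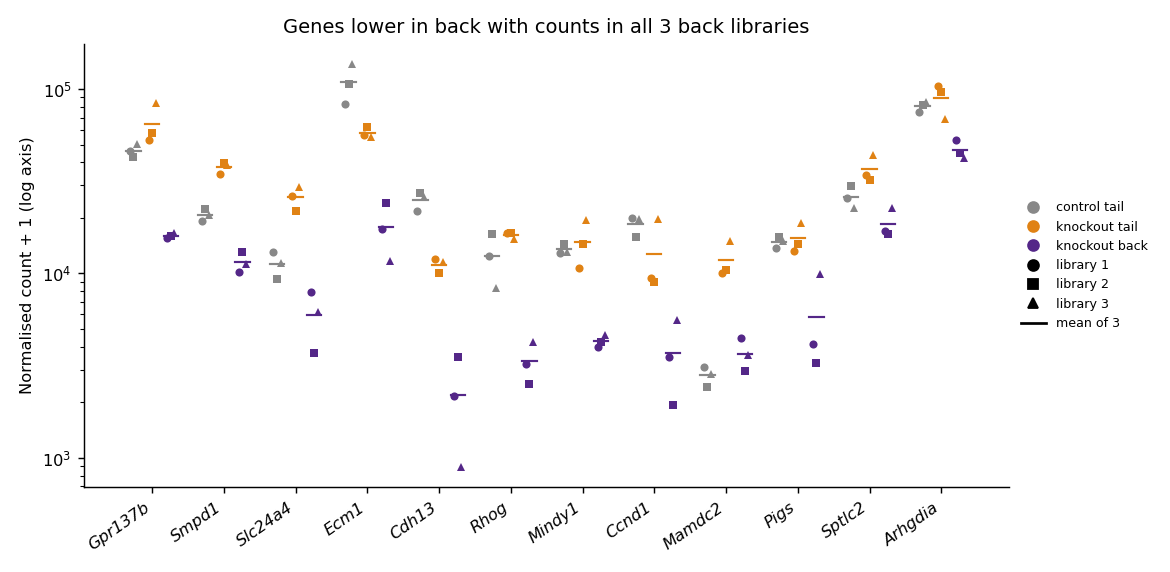
Normalised counts plus 1, on a log axis, of 12 genes lower in back with counts in all 3 back libraries, by library in control tail (grey), knockout tail (orange) and knockout back (purple), with a line at the mean of 3. The back libraries of Gpr137b sit together at 15495 to 16585 below 52789 to 84134 in tail. Those of Cdh13 are drawn from 887 to 3505, where the lowest is the third library, whose counts still hold the removed shift. The deposited levels of Cdh13 in back were 10.63, 11.22 and 11.13.

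Lysosomal genes as a list did not follow Gpr137b and Smpd1: 0 of 26 measured members passed in either direction, with a median difference of -0.34, which was 0.19 with each library centred on its median gene. Hexa, a hexosaminidase subunit gene, had 31927, 45596 and 33841 normalised counts in back against 19325, 16224 and 18707 in tail and did not pass (a 2.05-fold ratio, limma adjusted p = 0.076).

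**Figure D4:**
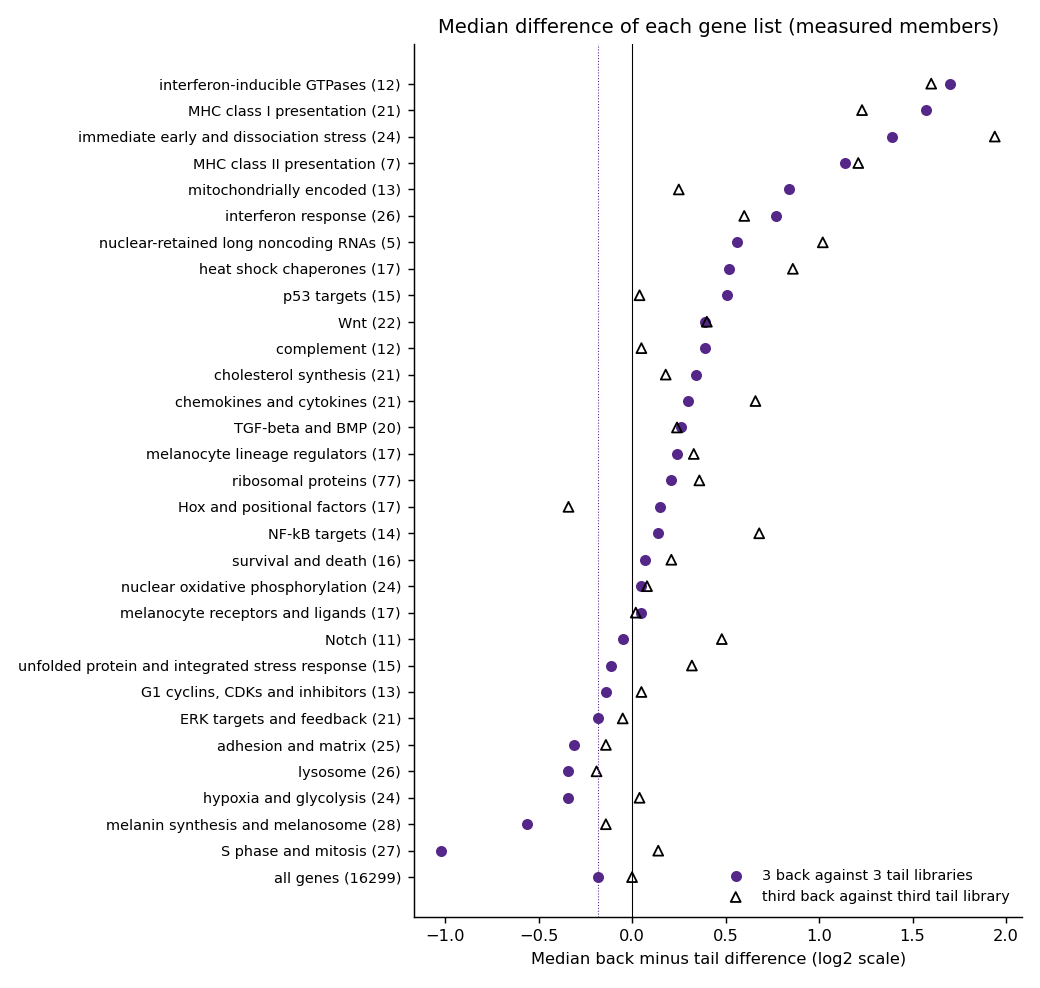
Median back minus tail difference (log2 scale) of each gene list, with the number of measured members in brackets, for the 3 back against 3 tail libraries (filled circles) and the third pair alone (triangles), with a dotted line at the median over all genes, -0.18. Interferon-inducible GTPases (1.70 and 1.60), class I genes (1.57 and 1.23) and immediate early and dissociation stress genes (1.39 and 1.94) are far right in both measures, while S phase and mitosis genes are at -1.02 and 0.14.

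Set against the control tail libraries, all 3 back libraries lay above all 3 controls in 23 of the 23 genes that rose, beside 8.68% of all genes. They lay below all controls in 46 of the 48 genes that fell, beside 20.8% of all genes. Back and control differ in site, in genotype and in sex-linked genes, so this comparison does not separate them. Eif2s3y had 2974 to 3843 normalised counts in back and 121, 0 and 7 in control tail, where Xist had 4223, 1416 and 3973. The comparison with control also shares the back libraries with the comparison of back and knockout tail.

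Markers of other cell types differed between single libraries more than between groups. Sebaceous gland markers summed to 0.683%, 0.682% and 0.0737% of counts in back and 0.0918%, 0.0618% and 0.0553% in tail, so the first and second back libraries stood apart (exact two-sided permutation p = 0.2). The mean deposited levels of these markers, with the shift removed, were 13.45, 13.64 and 11.25 in back and 11.12, 9.98 and 11.49 in tail. Basal keratinocyte markers summed to 0.0896% to 0.353% in back and 0.0316% to 0.64% in tail (exact p = 1), and the 7 melanocyte markers with recovered counts to 1.52% to 1.72% and 1.37% to 1.59% (exact p = 0.2). Of the other lists only that of mast cell and granulocyte markers reached the smallest possible exact p of 0.1. Its 2 measured members were S100a8 and S100a9, while Cpa3, Mcpt4, Tpsb2, Cma1 and Ms4a2 were absent from the table. That pair was lower in back at 0.00774% to 0.0121% against 0.0178% to 0.0398%. Haemoglobin genes, with 1 muscle gene, made up 0.0107% to 0.0457% in back, and 0.16%, 0.197% and 0.00476% in tail. The part of these cells in the genes called was not tested.

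The number of calls depended on single libraries and on the model, and none of the 71 genes passed under all 25 alternatives. H2-K1 passed in 22, Malat1 and Prl2c5 in 21, and H2-D1, Gpr137b and the unnamed model Gm14226 in 19. H2-K1 and Prl2c5 passed in all 9 fits that left out 1 library, with adjusted p of 0.0031 to 0.024 in limma for each. Calls numbered 35 without the first back library, 71 without the second and 1638 without the third. Without the first, the second or the third tail library they numbered 2, 10 and 1642, and without the first, the second or the third control library 7, 10 and 13. Leaving out the third back or the third tail library takes both out of the contrast, since the set term then fits the other exactly. Both fits thus rest on the 7 libraries of the larger set, and nearly 1 fit is counted more than once among the alternatives. With group as the only term there were 244 calls (1.5% of genes), 67 higher (0.411%) and 177 lower (1.09%), and limma-voom gave 202 (1.24%), 56 higher (0.344%) and 146 lower (0.896%). Of the 71 calls 47 passed in limma-voom too. The others did not, among them H2-Q6 (adjusted p = 0.077), Atf3 (0.057), Hoxb2 (0.058), Cdh13 (0.074), Rhog (0.063), Ecm1 (0.13), Napsa (0.13) and Krt6b (0.27). With the 6 knockout libraries alone limma called 0 genes, with 2051 at an unadjusted p under 0.05. The balance of directions also moved with scaling: 23 higher and 48 lower genes became 46 and 46 with quantile normalisation, 61 and 16 with each library centred on its median gene and 28 and 161 on the log2(normalised count + 1) scale. Among the 71 called genes 0 of 1734 fits under the alternatives reversed. All 71 had been called without overlap between the groups, which leaves little room for a reversal. This does not extend to uncalled genes, as the median over all genes moved from -0.18 to 0.35 with median centring.

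**Figure D5:**
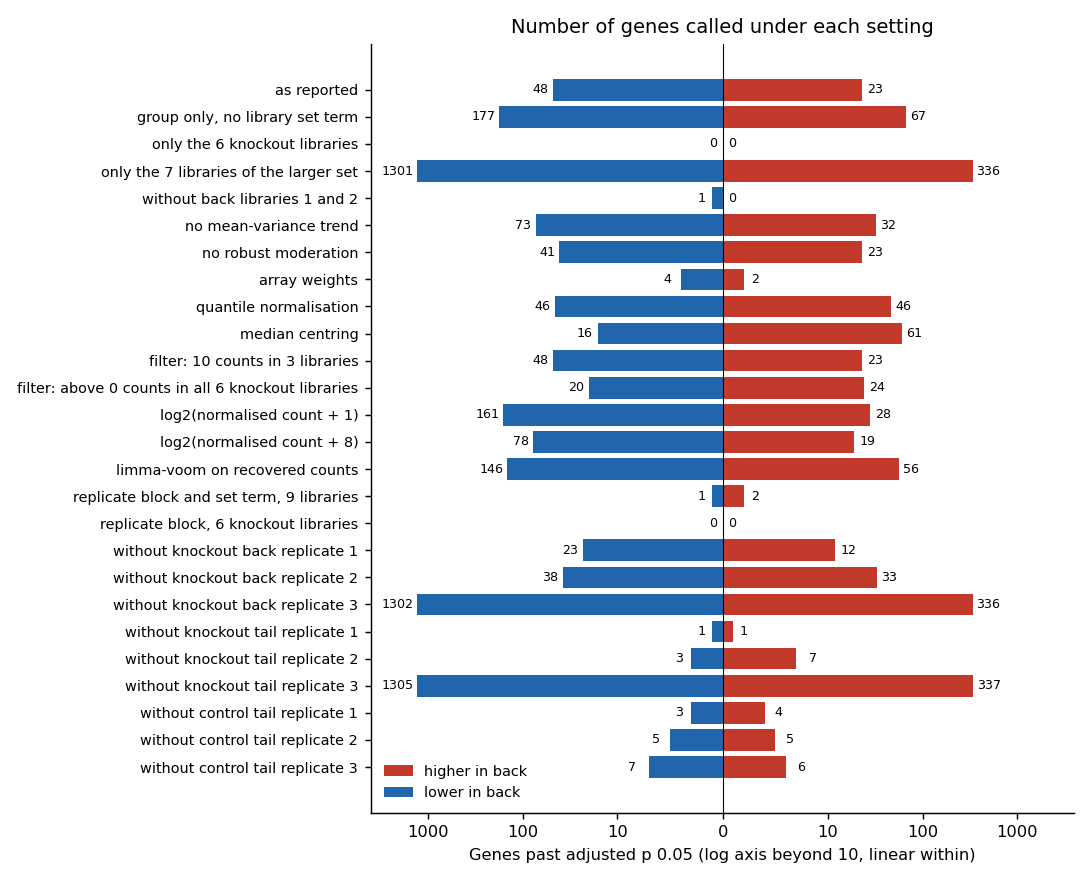
Number of genes called higher (red, to the right) and lower (blue, to the left) in back under each setting, on an axis that is linear up to 10 and logarithmic beyond. The reported fit has 23 and 48, the fits without the third back or the third tail library have 336 or 337 and 1302 or 1305, and the fit of the 6 knockout libraries alone has 0 and 0.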

How the data were processed

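RNA of melanocytes was sequenced after Trizol extraction and SMART-Seq library preparation on an Illumina NovaSeq, per the labels' protocols. The deposited table holds values on a log2 scale for 16299 genes in 9 libraries, 3 per group. The authors' tool DESeq2 and the build GRCm38 are named per the submitters' processing notes. No aligner, counter or strand setting is stated in the labels or headers, so overlapping and antisense genes cannot be told apart. The values themselves showed a variance-stabilised log2 scale, with 7.98 at 0 counts, which understates the change of low genes. A shift between the third knockout tail and the third back library and the other 7 had been removed, since their gene means were equal to within 7.14e-09.

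Undoing both gave whole counts for 16295 genes, within 0.004 of a whole number. Dct, Ftl1, Pmel and Tyrp1 were too high to resolve, and totals leave them out. Normalised counts are recovered counts divided by the library's size factor. Library totals were 45.3 to 67.2 M, and the libraries' spread was not compared with counting error.

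Back and knockout tail were compared with limma 3.58.1 (R 4.3.3, mean-variance trend, robust moderation) on the deposited log2 values of all 9 libraries, with group and library set as terms, Benjamini-Hochberg adjustment over all genes and a threshold of 0.05. Scripts were tested on simulated data. Single values over 3 against 3 libraries were tested by exact permutation. Alternatives left out each library and changed scaling, filter, weights, moderation, covariates and model, limma-voom included. Genes named were the 12 largest rises and the 12 largest falls among those called without overlap and a difference of at least 1 in the same direction in the third pair (unnamed gene models and sex-linked genes left out), called members of the gene lists, and a fixed group of lineage and check genes. A few others were chosen after their values were seen: Rnase1, Josd2, Gabbr1, the models Gm13306 and Gm14226, the well-counted falls and the uncalled list members given as values. The members and lists were chosen with earlier results of these data known. Promoter windows were matched by symbol to RefSeq on GRCm38.p6, for 10863 genes of the table. Coordinates are from GENCODE vM21 on GRCm38 and count from 1. The symbols of 907 genes were respelled to a known symbol.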

Additional observations from a re-analysis of the deposited data

How the results depend on the processing

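Of 1734 fits of the 71 called genes under 25 alternatives, 871 passed in the same direction, 863 did not pass and 0 reversed. Calls numbered 244 (67 higher, 177 lower) with group as the only term, 1637 (336, 1301) in the 7 libraries of the larger set, 1 (0, 1) without the first and second back libraries, and 6 (2, 4) with array weights. They numbered 44 (24, 20) among genes above 0 counts in all 6 knockout libraries, 189 (28, 161) on the log2(normalised count + 1) scale, and 202 (56, 146) with limma-voom. The 6 knockout libraries alone gave 0 (0, 0) in limma, with 2051 at an unadjusted p under 0.05. Genes lower in back numbered 73 without the mean-variance trend and 78 on the log2(normalised count + 8) scale. The split was 46 higher and 46 lower with quantile normalisation, and 61 and 16 with median centring. Fits that left out 1 library gave 2 to 1642 calls, 1 to 337 higher and 1 to 1305 lower. Where a fit leaves 1 library in a group, that library is assumed to vary like the others. Where it leaves 1 in the smaller set, the set term fits that library exactly, and it adds nothing to the contrast. The fits without the third back or the third tail library therefore nearly repeat that of the 7 libraries of the larger set. The third pair differed by at least 1 in 2241 genes, and in 6170 on the log2(normalised count + 1) scale. The median over all genes moved from -0.18 to 0.03 with quantile normalisation, 0.35 with median centring and -0.73 on the log2(normalised count + 1) scale. Except for fits with fewer genes or libraries, the cause of these shifts was not tested.

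The replicate numbers are not treated as pairs: no label ties equal numbers together, and the deviations of back and tail libraries correlated over genes at -0.02 for the first and -0.17 for the second pair. The value of the third pair is constrained by the removed shift and is not read. With replicate block and set term limma called 3 genes (2 higher, 1 lower), and with the replicate block in the 6 knockout libraries 0, with 1553 at an unadjusted p under 0.05.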

Other observations

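Some genes of lipid synthesis and storage had their highest normalised counts in the first and second back libraries. Of 21 cholesterol synthesis genes 15 were higher on average in back and 0 passed limma's threshold over all genes in either direction, with a median difference of 0.34, or 0.18 in the third pair. Idi1, an isoprenoid isomerase, had 22022, 27240 and 10543 normalised counts in back against 4070 to 8516 in tail. Scd1, a fatty acid desaturase and sebaceous gland marker, had 147097, 105580 and 4382 against 2613 to 8060, and Cidea, a lipid droplet protein, 15552, 16083 and 188 against 62 to 895. In normalised counts the first and second back libraries were the highest in each of these genes, though the counts of the third still hold the shift. The first and second are also the ones with the most genes at 0 counts.

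Of the mitochondrially encoded genes 13 of 13 were higher on average in back, beside 5985 of all 16299 genes. In the third pair 10 of the 13 were higher. Their median difference was 0.84, or 0.25 in the third pair, and 0 passed in either direction. All back libraries lay above all tail libraries in 10 of the 13, beside 7.53% of all genes. Among them was mt-Nd4, a complex I subunit, with 122793, 90362 and 61945 against 38158 to 42718 (log2 difference 1.12, limma adjusted p = 0.081). Nuclear genes of oxidative phosphorylation had a median of 0.05, with members on both sides: Cox7c, a complex IV subunit, differed by 0.92 and Uqcrc1, a complex III subunit, by -0.67, neither past the threshold. Ribosomal protein genes were higher on average in 65 of 77, with a median of 0.21 and 0 calls. Among complement genes Serping1, the C1 inhibitor, had 9777, 3607 and 2803 against 575, 697 and 66 (log2 difference 2.72, adjusted p = 0.057). Cd55, which protects cells from complement, had 11, 0 and 262 against 520, 595 and 1715 (log2 difference -1.79, adjusted p = 0.063). Among glycolysis genes Pfkl, a phosphofructokinase subunit, had 8067, 12061 and 16323 against 2876 to 5874 (adjusted p = 0.067), while Eno1, the enolase gene, had 88643, 61991 and 112198 against 140833 to 162987 (adjusted p = 0.12).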
